A study of Mus musculus with 6 samples.

Results

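The class I heavy chains of the mouse H2 complex and their shared light chain, B2m, were followed in infarcted hearts. The group was set by gene name and holds 10 of the 54532 listed genes: the classical heavy chains H2-K1 and H2-D1, the non-classical heavy chains H2-T22, H2-T23, H2-T24, H2-Q4, H2-Q6, H2-Q7 and H2-M3, and B2m. Heart tissue from the infarct and its border was sequenced in bulk from 3 WT mice and 3 mice labelled TSLPR KO, here called Crlf2-/-, all of the C57BL/6 strain, on day 7 after ligation of the left anterior descending coronary artery. Crlf2 encodes the chain of the receptor that binds TSLP, and the comparison asks what its loss changes in the infarcted heart. All 6 hearts were infarcted, and none was a sham-operated heart. The methods describe male adults, with the WT mice bought from one supplier and the knockout line made by another on the C57BL/6J background. No age is given in the labels.

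MHC class I molecules are built from a heavy chain and B2m, and they show short peptides from inside the cell at the cell surface. Classical heavy chains are made by nearly all nucleated cells and present peptides to CD8 T cells. Non-classical heavy chains are less variable between strains, are usually made at lower levels, and are read by NK cell receptors, gamma delta T cells or T cells of narrow specificity. Interferons raise the transcription of most of these genes through factors such as IRF1 and the transactivator NLRC5. Cardiomyocytes make little class I, and endothelial cells and leukocytes make more.

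The start regions of these genes share the sequence elements through which class I transcription is known to be switched on. RefSeq (GRCm38.p6) gave a start for 9 of the 10 genes, and H2-T24 had no entry. In the 250 bases before the start, on both strands, 9 of 9 held an interferon response element, searched as GAAANNGAA or GAANNGAAA, which 12.5% of all 32851 promoters of that length held. All 9 also held a Y box (CCAAT), the site of the factor NF-Y, against 33.8% of all promoters. A CRE-like element (TGACG) was found in 7 of 9, against 17.8%, and the interferon element, the CRE-like element and the Y box stood together in 7 of 9, against 0.679%. The 8 bases GATTCCCC, part of the NF-kB site called enhancer A, were found in 4 of 9, against 0.752%. Matches of different motifs were counted separately, and the interferon motif was widened after a first look at these promoters. Letters that match are a description of the sequence and not a measured site. The stretches of 6 genes that hold the matches are shown 5′ to 3′ on the gene's own strand, with the matches in capitals; a second Y box match before H2-K1 lies outside the part shown. They were chosen to show one classical gene, 4 non-classical genes and B2m. The H2-K1 stretch is chr17:34000348-34000460 (minus strand), H2-T22 is chr17:36042755-36042948 (minus), H2-Q6 is chr17:35424675-35424804 (plus), H2-Q7 is chr17:35439037-35439148 (plus), H2-M3 is chr17:37270100-37270219 (plus) and B2m is chr2:122147543-122147643 (plus).
H2-K1: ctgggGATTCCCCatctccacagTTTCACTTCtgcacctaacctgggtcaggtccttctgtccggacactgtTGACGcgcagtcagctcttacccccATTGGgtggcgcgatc
H2-T22: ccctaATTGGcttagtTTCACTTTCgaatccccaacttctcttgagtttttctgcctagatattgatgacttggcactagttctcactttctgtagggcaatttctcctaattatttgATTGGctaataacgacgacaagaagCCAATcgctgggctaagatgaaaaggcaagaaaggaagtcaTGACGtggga
H2-Q6: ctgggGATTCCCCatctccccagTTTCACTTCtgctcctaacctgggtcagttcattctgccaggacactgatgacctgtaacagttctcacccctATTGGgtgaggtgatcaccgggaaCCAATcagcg
H2-Q7: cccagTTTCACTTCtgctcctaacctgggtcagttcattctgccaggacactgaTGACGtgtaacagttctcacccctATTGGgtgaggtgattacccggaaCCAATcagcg
H2-M3: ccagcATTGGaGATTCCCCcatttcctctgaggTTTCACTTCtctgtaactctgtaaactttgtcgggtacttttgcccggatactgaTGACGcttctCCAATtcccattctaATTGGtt
B2m: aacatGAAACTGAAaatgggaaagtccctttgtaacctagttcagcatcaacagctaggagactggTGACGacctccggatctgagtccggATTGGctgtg
The H2-K1, H2-Q6 and H2-M3 stretches hold both the enhancer A bases and the interferon element, whereas no copy of the enhancer A bases was found in those of H2-T22, H2-Q7 and B2m. The CRE-like letters were found before H2-Q7 and not before H2-Q6.

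Values are FPKM, the fragments counted on a gene divided by its length and by the total of its library, as the authors deposited them and scaled here between libraries by at most 0.894%. The number of fragments on listed genes ran from 18508646 to 19682428 per library. Differences were tested with limma on log2(FPKM + 0.1) over 15520 genes with enough fragments, and a call needed both a log2 fold change of 0.5 or more in size and, after Benjamini-Hochberg adjustment, a p no greater than 0.05. A positive log2 fold change means higher in Crlf2-/- hearts. Over all tested genes 2 were called, which is 0.0129%, namely Wdfy1 and Ighg2b, and neither belongs to the class I group. The study's own comparison, made with the DESeq2 package at the same thresholds, reported more genes. The median log2 fold change over all tested genes was -0.0042. Crlf2 itself stood at 26.8, 24.9 and 21.6 FPKM in WT and at 13.2, 18.6 and 19.9 in Crlf2-/- hearts, a log2 fold change of -0.52 ± 0.17 (SE, limma, unadjusted p = 0.0141, adjusted p = 0.521). The libraries did not overlap, but fragments on Crlf2 were present in all 3 Crlf2-/- libraries, and a value for the whole gene does not show which exons they came from. The labels' extraction text names retina, and the tissue label names heart. Of 6 retina markers, Crx and Rcvrn were at 0 fragments in every library and the summed level of all 6 was at most 0.116 FPKM, whereas the 6 cardiomyocyte markers summed to between 602.5 and 1765 FPKM.

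All 10 genes passed the filter on low values, and all 10 had higher mean values in Crlf2-/- than in WT hearts, with log2 fold changes from 0.09 for H2-M3 to 1.10 for H2-T24 and a median of 0.31. None of the 10 was called after adjustment (limma), and only H2-T24 had an estimate above the fold threshold of 0.5. An unadjusted p under 0.05 was found for 5 of the 10, all of them higher in Crlf2-/- hearts, against 3.22% of all tested genes in that direction. Limma's voom on the fragments also called none and had 6 of 10 at such a p, and the count of 5 fell to 2 without Crlf2-/- library 3. The 5 were H2-T24, H2-Q4, H2-T22, H2-Q6 and H2-T23, all non-classical. In 7 of the 10 every Crlf2-/- library lay above every WT library, against 5.37% of all tested genes, and the other 3 (H2-D1, H2-Q7 and H2-M3) overlapped. The genes share regulation and many of the same cells, so these counts are not independent observations. In bulk tissue, more cells of a type and more RNA per cell cannot be told apart.

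**Figure D1:**
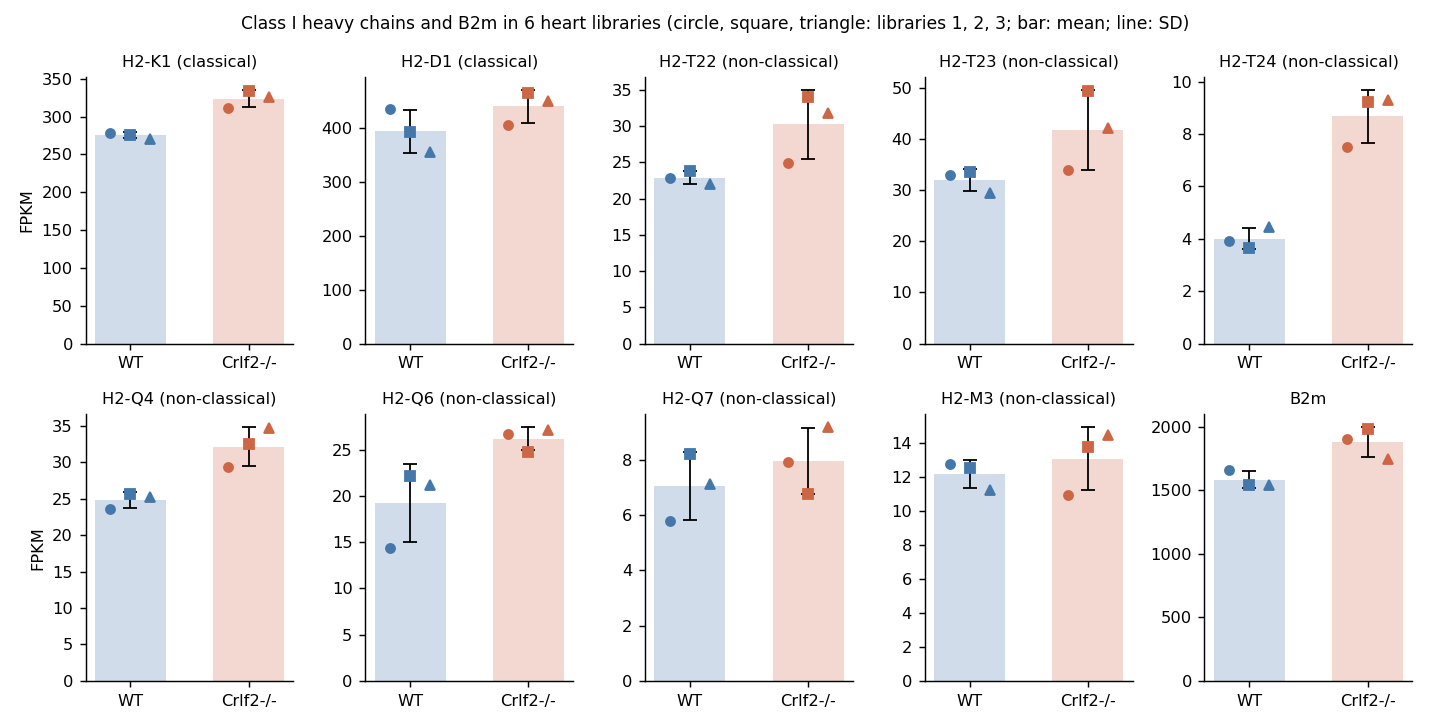
FPKM of the 10 genes in each library, with 1 panel per gene and its own axis from 0. Points are libraries, bars the mean of 3 WT (blue) or 3 Crlf2-/- (orange) libraries and lines the SD. The groups are furthest apart for H2-T24, at 3.997 against 8.68 FPKM, and overlap for H2-D1, H2-Q7 and H2-M3.

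The levels spanned a wide range within each heart. In WT hearts B2m led with 1585 ± 68.2 FPKM (SD, n = 3), followed by H2-D1 at 393.4 ± 39.7, H2-K1 at 275.2 ± 3.98, H2-T23 at 32.0 ± 2.19, H2-Q4 at 24.9 ± 1.08, H2-T22 at 22.9 ± 0.883, H2-Q6 at 19.2 ± 4.24, H2-M3 at 12.2 ± 0.842, H2-Q7 at 7.05 ± 1.23 and H2-T24 at 3.997 ± 0.402. The WT libraries of H2-Q4 and H2-T22 overlapped, as did those of H2-T22 and H2-Q6, and all other neighbours in this order stood apart. The order in Crlf2-/- hearts was the same but for the last places, where H2-T24 averaged 8.68 ± 1.01 FPKM and H2-Q7 7.97 ± 1.21. H2-T24 lay below H2-Q7 in each WT library and in Crlf2-/- library 1, and above it in Crlf2-/- libraries 2 and 3. In Crlf2-/- hearts the neighbours from H2-T23 through H2-Q4 and H2-T22 to H2-Q6 each overlapped.

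Gene positions below are those of the deposited table, for which the submitters' processing notes name the mouse build mm10. H2-K1, like H2-D1, presents peptides to CD8 T cells. H2-K1 (ENSMUSG00000061232; chromosome 17, 33996017 to 34000333, minus strand) was represented by 15483 to 20420 fragments per library. It measured 279, 275.6 and 271.1 FPKM in the WT libraries and 311.6, 334.3 and 326.1 in the Crlf2-/- libraries. All 3 Crlf2-/- libraries were above all 3 WT libraries, which lay close together. The log2 fold change was 0.23 ± 0.11 (SE, limma), with a 95% confidence interval from -0.02 to 0.49 (unadjusted p = 0.0657, adjusted p = 0.807).

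H2-D1 (ENSMUSG00000073411) lies on the plus strand of chromosome 17 from 35262730 to 35267499. Its values were 434.1, 391.2 and 354.9 FPKM in WT and 405.5, 463.7 and 450 FPKM in Crlf2-/- hearts. WT library 1 lay above Crlf2-/- library 1, so the groups overlapped. This gave a log2 fold change of 0.16 ± 0.13 (SE, limma, adjusted p = 0.952), with a 95% interval from -0.14 to 0.47. Of its transcript windows of 150 bases, 1.35% also occur in H2-Q1.

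B2m (ENSMUSG00000060802), the light chain that every heavy chain of this group pairs with, lies on the plus strand of chromosome 2 from 122147686 to 122153083, outside the H2 complex. It measured 1664, 1546 and 1545 FPKM in WT and 1906, 1983 and 1751 FPKM in Crlf2-/- hearts. All Crlf2-/- libraries were above the WT libraries, and the smallest gap was between WT library 1 and Crlf2-/- library 3. On the log2 scale the difference was 0.25 ± 0.13 (SE, limma, unadjusted p = 0.0962, adjusted p = 0.845). Per library, B2m stood at 2.01, 1.94 and 2.07 times the summed FPKM of the 9 heavy chains in WT and at 2.22, 2.05 and 1.85 times in Crlf2-/- hearts. These ratios overlapped between the groups.

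Among the genes of the T region, H2-T24 (ENSMUSG00000053835) had the largest fold change of the 10 genes. Its place is chromosome 17, 36005695 to 36020560, minus strand, beside H2-T23 and H2-T22. It measured 3.91, 3.65 and 4.44 FPKM in WT and 7.52, 9.22 and 9.30 FPKM in Crlf2-/- hearts, from 174 to 212 and from 362 to 471 fragments. The lowest Crlf2-/- library lay well above the highest WT library. The log2 fold change was 1.10 ± 0.13 (SE, limma), or 2.14-fold, with a 95% confidence interval from 0.80 to 1.40. Its unadjusted p of 2.66e-05 was the 6th smallest of the 15520 genes, and its adjusted p of 0.0689 missed the threshold. Without Crlf2-/- library 1 the log2 fold change was 1.20 with an adjusted p of 0.0336, the only setting of 14 in which any of the 10 genes was called; over the 14 settings its adjusted p ran from 0.0336 to 0.355. No 150-base window of its transcripts occurs in a transcript of another gene.

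H2-T22 (ENSMUSG00000056116; chromosome 17, 36037128 to 36042747, minus strand) encodes a ligand of a subset of gamma delta T cells. It measured 22.9, 23.8 and 22.03 FPKM in WT and 24.9, 34.0 and 31.9 FPKM in Crlf2-/- hearts. The groups did not overlap, and Crlf2-/- library 1 lay nearer to the WT libraries than to the other two. The log2 fold change was 0.39 ± 0.13 (SE, limma, unadjusted p = 0.0179, adjusted p = 0.561). Of its 150-base windows, 22.3% also occur in transcripts of A930015D03Rik, which overlaps it on the opposite strand, or of H2-T10. A930015D03Rik held between 0 and 1 fragment per library, and how fragments in shared stretches were assigned is not given in the sources used here, so the level of H2-T22 is uncertain in that part.

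H2-T23 (ENSMUSG00000067212; chromosome 17, 36029773 to 36032855, minus strand) encodes Qa-1, which is read by the CD94/NKG2 receptors of NK cells. It measured 33, 33.6 and 29.5 FPKM in WT and 33.9, 49.5 and 42.1 FPKM in Crlf2-/- hearts. The groups were separated only by the narrow gap between WT library 2 and Crlf2-/- library 1. Its log2 fold change was 0.37 ± 0.15 (SE, limma, unadjusted p = 0.0372, adjusted p = 0.709). Klrd1 and Klrc1, which encode CD94 and NKG2A, had log2 fold changes of 0.05 ± 0.28 and -0.19 ± 0.24 (SE, limma) with overlapping groups.

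In the Q region, H2-Q4 (ENSMUSG00000035929; chromosome 17, 35379617 to 35385290, plus strand) measured 23.7, 25.7 and 25.3 FPKM in WT and 29.4, 32.5 and 34.7 FPKM in Crlf2-/- hearts. All Crlf2-/- libraries lay above the WT libraries, and both groups were tight. A log2 fold change of 0.37 ± 0.10 (SE, limma, unadjusted p = 0.00765, adjusted p = 0.425) was estimated. Gm11131 overlaps it on the opposite strand and shares 9.87% of its windows, but held only 27 to 44 fragments per library against 1404 to 2022 for H2-Q4.

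H2-Q6 and H2-Q7 belong to the Qa-2 genes, whose sequences are close copies of each other. H2-Q6 (ENSMUSG00000073409; chromosome 17, 35424850 to 35430055, plus strand) measured 14.4, 22.2 and 21.2 FPKM in WT and 26.7, 24.8 and 27.1 FPKM in Crlf2-/- hearts. The groups did not overlap, and WT library 1 stood far below the other WT libraries. The log2 fold change was 0.47 ± 0.17 (SE, limma, unadjusted p = 0.022, adjusted p = 0.616), and 0.27 without WT library 1.

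H2-Q7 (ENSMUSG00000060550; chromosome 17, 35439155 to 35443773, plus strand) measured 5.78, 8.24 and 7.13 FPKM in WT and 7.95, 6.78 and 9.19 FPKM in Crlf2-/- hearts. The groups overlapped, and WT library 1 was again the lowest of all. Its log2 fold change was 0.18 ± 0.16 (SE, limma, adjusted p = 0.964), and 0.05 without WT library 1. Of the 150-base windows of H2-Q6, 5.99% also occur in H2-Q7. Of those of H2-Q7, 5.9% also occur in H2-Q10, H2-Q6 or H2-Q5, and H2-Q10 shares the most. Fragments of these genes can be split or lost in counting. A sum of H2-Q6 and H2-Q7 does not cover those shared with H2-Q10 and H2-Q5. Added up, the fragments of the pair numbered 1250, 1779 and 1634 in the WT libraries against 1977, 1889 and 2153 in the Crlf2-/- libraries, which did not overlap.

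H2-M3 (ENSMUSG00000016206; chromosome 17, 37270220 to 37274484, plus strand) presents peptides with a formylated first residue, as bacteria and mitochondria make them. It measured 12.8, 12.5 and 11.2 FPKM in WT and 10.96, 13.8 and 14.5 FPKM in Crlf2-/- hearts. Crlf2-/- library 1 was the lowest of all 6, and the groups overlapped. The log2 fold change was 0.09 ± 0.13 (SE, limma, adjusted p = 0.995), with a 95% confidence interval from -0.20 to 0.39.

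**Figure D2:**
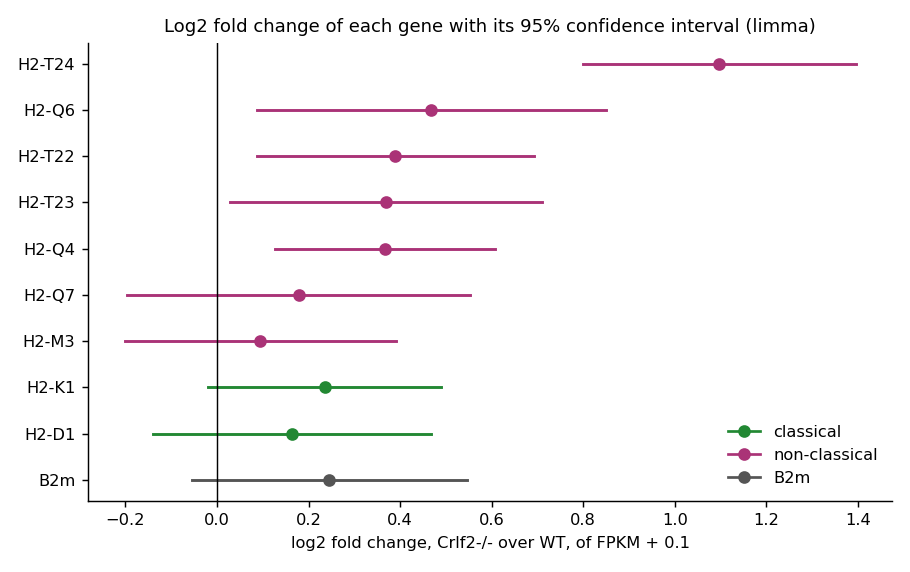
Log2 fold change of FPKM + 0.1, Crlf2-/- over WT, on the horizontal axis, with 95% confidence intervals from limma over 3 libraries a group. All 10 points lie above 0, the intervals of H2-T24, H2-Q6, H2-T22, H2-T23 and H2-Q4 do not reach 0, and those of the classical genes (green) and B2m (grey) do.

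Classical and non-classical genes were then set side by side. For the 2 classical genes the median log2 fold change was 0.20 and none had an unadjusted p under 0.05. The 7 non-classical genes had a median of 0.37, and 5 of 7 had such a p, against 3.22% of all tested genes higher in Crlf2-/- hearts. The difference between the classes was not tested. The classical H2-K1 had an unadjusted p of 0.0657 (limma) with groups that did not overlap. The non-classical H2-Q7 (0.18) lay within the classical range of 0.16 to 0.23, and H2-M3 (0.09) lay below it. The summed FPKM of the classical genes was 713.1, 666.8 and 625.9 in WT and 717.2, 797.9 and 776.1 in Crlf2-/- hearts. That of the non-classical genes was 116.4, 129.7 and 120.8 in WT and 141.3, 170.5 and 168.7 in Crlf2-/- hearts. Neither sum overlapped between groups, and the gap of the classical sum, between WT library 1 and Crlf2-/- library 1, was small.

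The classical genes made up 86.0%, 83.7% and 83.8% of the summed heavy chain FPKM in WT and 83.5%, 82.4% and 82.1% in Crlf2-/- hearts, a mean of 84.5% ± 1.27 against 82.7% ± 0.744 (SD, n = 3). Every Crlf2-/- share was below every WT share, by a narrow margin. The separation depended on which genes were summed. Without H2-Q6 and H2-Q7 the shares were 88.1%, 87.04% and 87.13% in WT and 87.05%, 85.2% and 85.4% in Crlf2-/- hearts, and without H2-T24 they were 86.4%, 84.1% and 84.3% against 84.3%, 83.2% and 83.0%, and in both cases the groups overlapped. The share was given no test, since it is a score over the chosen genes.

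Within a library, each gene was also read against H2-K1, which removes any difference that all the genes of a library share. H2-T24 stood at 1.40, 1.32 and 1.64 FPKM per 100 FPKM of H2-K1 in WT and at 2.41, 2.76 and 2.85 in Crlf2-/- hearts. H2-Q4 stood at 8.48, 9.32 and 9.32 against 9.42, 9.71 and 10.63. In these 2 genes the ratio of every Crlf2-/- library was above that of every WT library, with log2 differences of 0.88 for H2-T24 and 0.13 for H2-Q4. Each gave p = 0.1 in a two-sided exact permutation test over the 20 arrangements of the libraries (n = 3 per group), the smallest that this design allows, and 0.45 after Benjamini-Hochberg adjustment over the 9 ratios. The other 7 ratios overlapped between the groups, with exact permutation p from 0.2 for H2-M3 to 1 for B2m. H2-D1, H2-Q7 and H2-M3 had lower mean ratios to H2-K1 in Crlf2-/- hearts, by -0.07, -0.05 and -0.14 on the log2 scale, and B2m differed by 0.01.

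**Figure D3:**
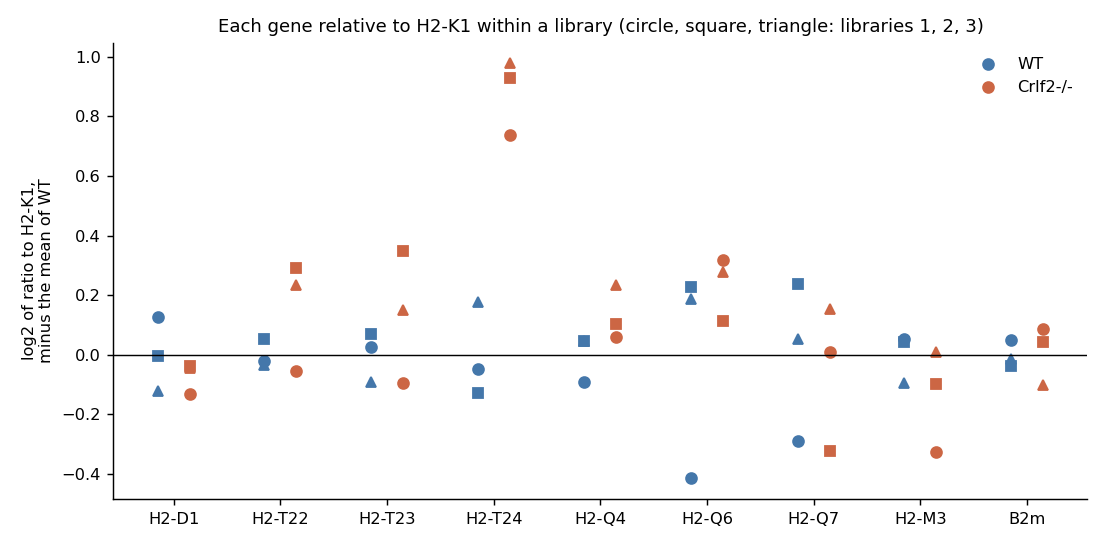
Log2 of each gene's FPKM over that of H2-K1 in the same library, minus the mean of the 3 WT libraries (vertical axis), with 1 point per library. The 3 Crlf2-/- points of H2-T24 lie far above its WT points, those of H2-Q4 lie just above, and the points of the other 7 genes are mixed.

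The Crlf2-/- libraries differed among themselves. Library 1 had the lowest value of the 3 in H2-K1, H2-D1, H2-T22, H2-T23, H2-T24, H2-Q4 and H2-M3, but not in H2-Q6, H2-Q7 or B2m. H2-K1, H2-D1, H2-T22 and H2-T23 ran in the order library 2, library 3, library 1, with 334.3, 326.1 and 311.6 FPKM for H2-K1 and 34.0, 31.9 and 24.9 for H2-T22. The other 6 genes ran in other orders. Irf7, an interferon-induced transcription factor, ran in the same order, at 53.7, 46.9 and 25.6 FPKM. The interferon pathway genes Stat2 and Irf9 did too, but Nlrc5 and the peptide transporter gene Tap1 did not. In libraries 2, 3 and 1, Nlrc5 was at 2.25, 3.37 and 3.49 FPKM and Tap1 at 15.1, 17.1 and 13.9. The reason for these orders was not tested. Values for Myl2, the ventricular myosin light chain, split these libraries another way, at 28.8 and 30.4 FPKM in libraries 1 and 2 and 78.8 in library 3.

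Over the 6 libraries, the log2 values of H2-K1, H2-D1 and B2m were averaged after centring, and each gene was compared with this mean. As a description over 6 libraries that include both genotypes, Pearson's r was 0.87 to 0.89 for H2-T22, H2-T23 and H2-T24 and 0.80 for H2-Q4, but 0.56 for H2-M3, 0.44 for H2-Q6 and 0.08 for H2-Q7. The 5 tested genes outside the group with the highest r were Shisa5 (0.981), Mrgbp (0.980), C330013E15Rik (0.980), Mlkl (0.980) and Sec14l2 (0.976). All 5 were picked for likeness to a mean that was itself higher in Crlf2-/- hearts. Their separation between the groups therefore comes with the choice and is no separate result. Of these, Mlkl, the executor of necroptosis, measured 8.11, 6.51 and 6.31 FPKM in WT and 10.35, 11.3 and 10.53 FPKM in Crlf2-/- hearts (log2 fold change 0.62 ± 0.12, SE, limma, adjusted p = 0.202).

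Other class I heavy chains of the H2 complex were scarce. Of 23 names, 19 were matched, 5 were tested, 7 had fragments below the filter and 7 were at 0 in every library. H2-K2, H2-Q5, H2-Q10, H2-T10 and H2-M9 were tested, their groups overlapped, and none had an unadjusted p under 0.05. H2-K2 measured 2.24 ± 0.441 FPKM in WT and 2.83 ± 0.757 in Crlf2-/- hearts (SD, n = 3), and H2-T10 1.61 ± 0.259 and 1.96 ± 0.353. Of 12 class I-like heavy chains encoded outside the complex, such as Cd1d1 and Mr1, 9 were tested and none had such a p, with a median log2 fold change of 0.08. H2-L, H2-Q8, H2-Q9 and H2-T9 were not analysed here.

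Class I heavy chains fold around peptides that the immunoproteasome cuts and TAP carries into the endoplasmic reticulum. Of 13 genes for peptide supply and loading, all tested, 2 had an unadjusted p under 0.05 and were higher in Crlf2-/- hearts. That compares with 3.22% of all tested genes in that direction. None was lower with such a p, and none was called. Tap1, a chain of the peptide transporter, measured 10.39, 9.05 and 10.36 FPKM in WT and 13.9, 15.1 and 17.1 FPKM in Crlf2-/- hearts, without overlap (log2 fold change 0.62 ± 0.12, SE, limma, unadjusted p = 0.000635, adjusted p = 0.162). Tapbp, which holds empty heavy chains at TAP, measured 68.4, 66.7 and 66.3 against 72.5, 90.5 and 85.0 FPKM (0.29 ± 0.12, adjusted p = 0.711). The immunoproteasome subunits overlapped between groups: Psmb8 averaged 10.9 ± 1.82 and 13.3 ± 3.34 FPKM and Psmb9 5.15 ± 0.216 and 5.78 ± 0.894 (SD, n = 3). The list's median log2 fold change was 0.12.

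Of the 11 class I transactivators compared, none had an unadjusted p under 0.05, and their median log2 fold change was -0.01. Nlrc5, the transactivator that acts at class I promoters, measured 1.98, 1.84 and 2.81 against 3.49, 2.25 and 3.37 FPKM and overlapped (log2 fold change 0.44 ± 0.22, SE, limma, adjusted p = 0.82). Irf1 averaged 11.2 ± 0.591 FPKM in WT and 11.8 ± 0.584 in Crlf2-/- hearts (log2 fold change 0.07 ± 0.10, adjusted p = 0.995).

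Of 13 interferon and interferon receptor pathway genes, 11 were tested, with 7 positive and 4 negative log2 fold changes and a median of 0.04. At an unadjusted p under 0.05, 3 of them were higher in Crlf2-/- hearts and 1 was lower. Over all tested genes the shares were 3.22% higher and 3.36% lower. Irf7 had a log2 fold change of 1.38 ± 0.28 (SE, limma, adjusted p = 0.223), Stat2 of 0.73 ± 0.16 (adjusted p = 0.254) and Irf9 of 0.50 ± 0.11 (adjusted p = 0.25). Stat2 and Irf9 encode parts of a complex that binds interferon response elements. Ifngr1, a chain of the interferon gamma receptor, was the lower one, at 67.7, 62.4 and 65.3 FPKM in WT and 51.6, 52.7 and 50.5 in Crlf2-/- hearts, without overlap (-0.33 ± 0.10, SE, limma, unadjusted p = 0.00918, adjusted p = 0.457). Of the interferon genes, only Ifng and Ifnb1 were looked at, and both were too low to test. For Ifng, the type II interferon, the WT libraries held 7, 9 and 4 fragments and the Crlf2-/- libraries 3, 1 and 2, and Ifnb1 had at most 1.

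Class II presentation, which serves CD4 T cells, stood the other way. All 8 class II genes were tested and all had negative log2 fold changes, with a median of -0.38, and 4 of 8 had an unadjusted p under 0.05 and were lower in Crlf2-/- hearts, against 3.36% of all tested genes in that direction. In 3 of the 8 the highest Crlf2-/- library was below the lowest WT library, against 6.37% of all tested genes, and none was called. H2-Aa, a chain of the I-A molecule, measured 171.8, 207.7 and 225.1 FPKM in WT and 128.4, 118.4 and 167.3 FPKM in Crlf2-/- hearts (log2 fold change -0.55 ± 0.17, SE, limma, adjusted p = 0.486). The study, using DESeq2, listed H2-Aa among its downregulated genes. H2-DMa, which helps to load class II, and H2-Eb1, a class II beta chain gene, had log2 fold changes of -0.32 ± 0.10 and -0.50 ± 0.17 (SE, limma, adjusted p = 0.518 and 0.563). Within a library H2-Aa stood at 61.6, 75.3 and 83.0 FPKM per 100 FPKM of H2-K1 in WT and at 41.2, 35.4 and 51.3 in Crlf2-/- hearts, without overlap. Dendritic cell markers, 7 in all, summed to between 14.2 and 18.1 FPKM in WT and between 9.72 and 14.9 in Crlf2-/- hearts, and their part in the class II values was not tested.

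Of 14 genes for receptors that read class I, or for members of the same receptor families, 12 were tested. Whether each of them reads class I was not examined. There were 6 positive and 6 negative log2 fold changes, with a median of -0.09. An unadjusted p under 0.05 with lower values in Crlf2-/- hearts was found for 5, against 3.36% of all tested genes. None was higher with such a p. Cd8a and Cd8b1 encode the coreceptor that binds classical class I. Cd8b1 measured 3.36, 5.30 and 3.79 FPKM in WT and 1.34, 1.12 and 1.53 FPKM in Crlf2-/- hearts (log2 fold change -1.55 ± 0.20, SE, limma, unadjusted p = 4.62e-05, adjusted p = 0.0778). Cd8a measured 2.69, 3.11 and 1.93 against 1.32, 0.505 and 0.636 FPKM (-1.62 ± 0.33, adjusted p = 0.216). Klra8, an NK cell receptor of the Ly49 family, had 25 to 30 fragments in WT and 17 to 23 in Crlf2-/- libraries (-0.49 ± 0.19, adjusted p = 0.7). Of the same family, Klra4 was lower (-0.78 ± 0.31, adjusted p = 0.712) and Klra7 higher (0.53 ± 0.30, adjusted p = 0.856; SE, limma). The 8 T cell markers summed to between 14.1 and 21.2 FPKM in WT and between 8.82 and 10.9 in Crlf2-/- hearts, and 7 of 8 had an unadjusted p under 0.05 in that direction.

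**Figure D4:**
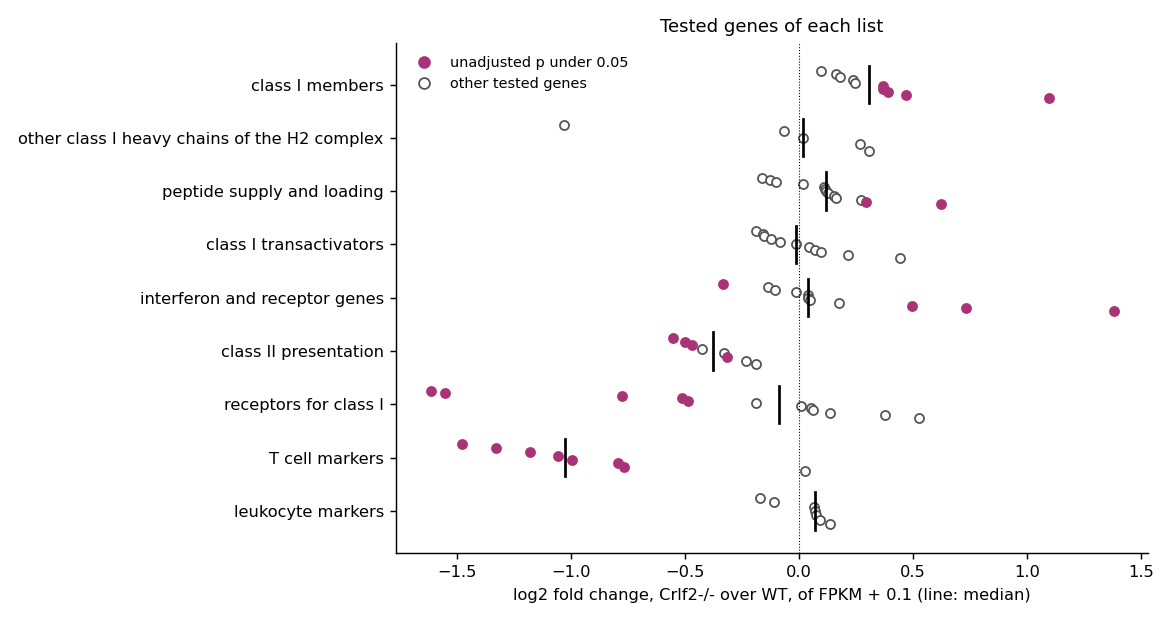
Log2 fold change of FPKM + 0.1, Crlf2-/- over WT (horizontal axis), of the tested genes of 9 lists, with filled points for an unadjusted p under 0.05 and a line at each median. The class I genes lie to the right of 0 with a median of 0.31, the class II genes to the left with a median of -0.38, and the leukocyte markers near 0 with a median of 0.07.

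The marker lists gave the cell background of these values. The 7 leukocyte markers summed to between 316.9 and 426 FPKM in WT and between 325.2 and 391.5 in Crlf2-/- hearts, and none had an unadjusted p under 0.05. Ptprc (CD45) measured 10.8, 8.08 and 11.5 against 12.8, 9.87 and 10.45 FPKM (log2 fold change 0.14 ± 0.16, SE, limma, adjusted p = 0.988). The 8 monocyte and macrophage markers summed to 1950 to 3561 and 2269 to 2938 FPKM, with 1 of 8 at an unadjusted p under 0.05, higher in Crlf2-/- hearts. The 6 endothelial markers summed to 140 to 156 against 130.9 to 133.9 FPKM and the 6 fibroblast markers to 5350 to 6254 against 6190 to 6409, with none at such a p in either list. NK cell markers (6) summed to 13.4 to 15.02 against 5.84 to 10.38 FPKM. Nkg7 and Gzma held most of this sum and were the 2 lower at such a p. The NK list was split, with 3 positive and 3 negative log2 fold changes and a median of -0.04. B cell markers (6) summed to 7.33 to 9.26 against 6.68 to 10.9, and neutrophil markers (6, of which Ly6g was too low to test) to 15.5 to 27.1 against 17.5 to 22.9. Cardiomyocyte markers were at 921.5 to 1765 FPKM in WT and 602.5 to 1199 in Crlf2-/- hearts, with all 6 log2 fold changes negative and 2 at such a p. Over all tested genes, 3.22% were higher and 3.36% lower in Crlf2-/- hearts at such a p. The part of any of these markers in the class I values was not tested.

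The other genes of the H2 complex were centred near 0. Between the start of H2-K1 and the end of H2-M3, from 33996017 to 37274484 on chromosome 17, 98 other genes were tested, with a median log2 fold change of 0.01. Of these 98, 3 had an unadjusted p under 0.05 and were higher in Crlf2-/- hearts and 6 were lower. Over all tested genes the shares were 3.22% higher and 3.36% lower. Tap1, one of the higher ones, had the smallest p of the 98 (unadjusted p = 0.000635, limma). Among the lower ones were the class II genes H2-Aa, H2-Eb1 and H2-DMa.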

How the data were processed

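Per the labels and the methods, the authors trimmed reads with fastp, aligned them with HISAT2 2.0.5, used featureCounts for the fragments of each gene, and deposited FPKM with a gene length. The submitters' processing notes name the builds mm10 and hg38; mm10 fits mouse. FPKM times length gave whole fragments for 100% of nonzero values (tolerance 0.05), which set depth, the filter and the scaling (trimmed mean of M values). The table held 0 columns of other samples. Because the unit was FPKM, log2(FPKM + 0.1) was tested with limma 3.58.1 in R 4.3.3 (eBayes with robust and trend), which understates changes of low genes. Genes needed 10 fragments in 3 libraries and 15 in total. The test was tried on simulated data with larger changes than those of most of the 10 genes, so its power for these was not measured. The p-values rest on the spread between 3 libraries a group, which limma draws towards that of other tested genes at a similar level. The 10 genes and all lists were chosen with earlier results of these data known. Named outside them were Nlrc5, Irf1, Tap1, Psmb8, Psmb9, H2-Aa, Cd8a, Ptprc and Crlf2, up to 3 genes a pathway list with the smallest unadjusted p under 0.05, and the 5 genes most alike by Pearson's r. The remaining heavy chains and the overlapping genes were named after their values were seen. So were Wdfy1, Ighg2b, Klrd1, Klrc1, Klra4, Klra7, Nkg7, Gzma, Myl2, Ly6g, Ifng, Ifngr1 and Ifnb1. Shared windows were counted between GENCODE M21 (GRCm38) transcripts, and the interferon motif was set after promoters were read. Python 3.11.15, numpy 2.4.6 and pandas 2.3.3 were used. A listed gene is withheld and not reported here.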

Additional observations from a re-analysis of the deposited data

How the results depend on the processing

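Over 14 settings for each of the 10 genes, 140 fits in all, every log2 fold change stayed positive, and in 139 no call changed; the exception was H2-T24 without Crlf2-/- library 1. The number of the 10 genes at an unadjusted p under 0.05 was 5 in all other settings but no filter and voom (6) and those that left out 1 library (2 to 4; 3 without Crlf2-/- library 2 and 2 without Crlf2-/- library 3). When 1 library was left out, H2-K1 ran from 0.22 to 0.26, B2m from 0.21 to 0.30, H2-Q4 from 0.32 to 0.43, H2-D1 from 0.09 to 0.24, H2-T22 from 0.30 to 0.52, H2-T24 from 1.04 to 1.20, H2-T23 from 0.24 to 0.51, H2-Q6 from 0.27 to 0.58, H2-Q7 from 0.05 to 0.30 and H2-M3 from 0.02 to 0.22. The count of called genes, 2 over all genes, was 6 with no filter, 1 with 10 fragments in every library, and 1 to 14 when 1 library was left out (14 without Crlf2-/- library 1). With the replicate number as a block (replicate block) it was 4, with none of the 10 genes among them; the correlation between deviations of libraries with one number was -0.016, 0.115 and 0.120, which did not make them pairs. Pseudocounts of 0.01 and 1, FPKM as deposited, upper-quartile scaling and dropping the fold threshold left the count at 2, and voom on the fragments gave 3. The mean classical share was 87.4% in WT and 85.9% in Crlf2-/- hearts without H2-Q6 and H2-Q7; without H2-T24, a setting chosen after seeing the data, it was 84.9% and 83.5%. Leaving out 1 library gave 83.8% to 84.9% in WT and 82.3% to 83.0% in Crlf2-/- hearts. The causes of these moves were not tested. In the main fit the fold threshold of 0.5 lies above the estimates of all the genes but H2-T24. The others, classical or not, could not be called there at any p. Their adjusted p (limma) ran from 0.425 for H2-Q4 to 0.995 for H2-M3, so they would not have been called without that threshold either. With 3 libraries a group, the lack of a call does not show that they did not differ. H2-T24, at 174 to 471 fragments, carries more counting error than the classical genes.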
